A study of Mus musculus with 20 samples.

Results

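The cytosolic ribosomal protein genes code for the structural proteins of the ribosome outside the mitochondria. They were taken as every gene whose symbol is Rpl or Rps with a number and an optional short ending, together with Rplp0, Rplp1, Rplp2 and Rpsa. This gave 83 of the 22048 genes counted, 52 of the large subunit and 31 of the small subunit. The rule used symbols only and no measured value. RNA had been sequenced from the arcuate nucleus (ARC), the feeding center at the base of the hypothalamus, which was cut out of stained brain sections by laser capture microdissection.

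All mice were male C57BL6/J and 10 weeks old at the start, with no altered gene. Vehicle mice drank 1% ethanol and Cort mice drank corticosterone, the main glucocorticoid of rodents, at 75 µg/ml in 1% ethanol. In the 2 day dataset treatment lasted 2 days. In the 4 week dataset it lasted 4 weeks. At the end of that period both groups were fasted for 16 hours and then refed for 24 hours. There were 5 samples of each group in each dataset. The study left out 2 vehicle samples and 1 Cort sample of each dataset as outliers, so that the main comparisons here set 3 vehicle samples against 4 Cort samples. Nothing states whether any sample pooled animals, and p-values measure only the spread between samples. The datasets also differed in section thickness, slides, laser system and sequencer. Between datasets, time on treatment, age at collection, the fast and refeeding and these steps therefore cannot be told apart.

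A ribosome translates messenger RNA into protein with a small subunit, which reads the code, and a large subunit, which joins the amino acids. Each subunit carries its own set of proteins, most of them present once, and cells make them in balanced amounts. Ribosomal protein mRNAs belong to the TOP class, which begins with a run of C and T bases at the 5′ end and through which the kinase complex mTORC1 controls their translation. The genes have also left many processed pseudogenes in mammalian genomes, and these near-copies bear on how reads of 50 bases can be assigned.

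For this reason 5 coding stretches of 50 bases, the length of a read, are shown as examples of members whose sequence does and does not occur in other annotated genes. Sequences and positions come from the GENCODE M21 transcripts on GRCm38. Capitals mark a base at which a pseudogene copy differs, and positions in the stretch are counted from 1 at its 5′ end. The Rpl8 stretch lies in an exon at chr15:76904898-76904947 (+) and had no match in another gene within 2 mismatches.
Rpl8: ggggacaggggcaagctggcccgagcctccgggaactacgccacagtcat
The Rpl4 stretch at chr9:64176998-64177047 (+) had 1 near-copy, in the pseudogene Gm5835, with the changes G14T and T33C.
Rpl4: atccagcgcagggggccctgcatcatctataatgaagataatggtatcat
Gm5835: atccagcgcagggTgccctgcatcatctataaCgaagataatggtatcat
The Rps6 stretch at chr4:86855964-86856013 (-) had 1 exact copy in another gene and matched 11 genes within 2 mismatches, among them Rps6-ps2 with the change C29T.
Rps6: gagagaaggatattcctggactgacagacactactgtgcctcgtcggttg
Rps6-ps2: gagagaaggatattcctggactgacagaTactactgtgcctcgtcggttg
The Rpl24 stretch at chr16:55969528-55969577 (+) matched 3 other annotated genes exactly. The gene Gm28037 overlaps 47.0% of the exon bases of Rpl24, and an overlapping gene also counted as another gene. Whether Gm28037 is among the 3 was not determined.
Rpl24: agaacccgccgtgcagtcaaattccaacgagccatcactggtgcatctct
The Rpl7a stretch at chr2:26912110-26912159 (+) had 5 exact copies and matched 43 genes within 2 mismatches, among them Rpl7a-ps3 with the change A31G.
Rpl7a: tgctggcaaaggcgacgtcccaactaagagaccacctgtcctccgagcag
Rpl7a-ps3: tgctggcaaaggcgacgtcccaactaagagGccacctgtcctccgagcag

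Promoter windows of RefSeq (GRCm38.p6, 250 bases before to 50 bases after the start) were matched for 62 of the 83 members. A run of at least 8 C or T bases on the gene's strand within 20 bases of the start was present in 41.9% of the 74 member windows and in 16.0% of all 32851 windows. Here 4 windows with long runs show this pattern, from 30 bases before to 20 bases after the start, with the run in capitals. They lie at chr2:26910777-26910826 (+), chr7:109519165-109519214 (+), chr3:130730318-130730367 (-) and chr2:39005112-39005161 (-).
Rpl7a: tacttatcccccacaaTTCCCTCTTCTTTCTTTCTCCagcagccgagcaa
Rpl27a: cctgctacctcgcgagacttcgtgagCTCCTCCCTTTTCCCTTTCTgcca
Rpl34: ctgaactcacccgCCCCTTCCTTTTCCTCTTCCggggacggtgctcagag
Rpl35: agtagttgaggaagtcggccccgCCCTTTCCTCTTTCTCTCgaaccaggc
Other motifs were searched on both strands of the whole window. The ETS-type motif CCGGAAG was present in 35.1% of member windows and 8.86% of all windows, and the YY1-type motif AAGATGG in 16.2% and 6.34%. The SP1-type motif GGGCGG was present in 59.5% and 35.7%, and TATAAA in 9.46% and 13.6%. These are matches of letters and not measured binding sites.

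The level of each member was computed per length as RPKM, the count per kilobase of annotated exon scaled to the sample's total count. The levels were far apart. By mean over the kept vehicle samples of both datasets, the 5 highest included Rps15, Rpl4, Rplp1 and Rpl8. In 2 day vehicle samples Rps15, a small subunit protein, had an RPKM of 722 ± 78.8 (SD, n = 3), Rplp1 506 ± 105, Rpl4 384 ± 14.6 and Rpl8 350 ± 52.3. In that group Rps15 lay above the others beyond the SDs, and Rplp1 above Rpl4 by slightly more than theirs, while Rpl4 and Rpl8 overlapped.

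The 5 lowest members with a count in every kept sample included Rps12, Rps27a, Rpl5 and Rps13. Their mean RPKM in 2 day vehicle samples was 2.09 ± 0.52 for Rps12, 2.37 ± 0.71 for Rps27a, 1.71 ± 0.36 for Rpl5 and 1.68 ± 0.11 for Rps13 (SD, n = 3). Rps27a is made as a fusion with ubiquitin, and Rpl5 binds the 5S ribosomal RNA. Neighbours in the order of these 4 levels did not differ beyond their SDs. Rps6, the target of S6 kinase and a common readout of mTORC1 activity, had an RPKM of 4.59 ± 1.27, and Rpsa, the laminin receptor protein of the small subunit, 5.75 ± 0.97.

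Levels were set beside how much of the coding sequence is found in no other annotated gene. In 27 members no coding stretch of 50 bases was unique, and their median RPKM in 2 day vehicle samples was 5.04. In 30 members with a unique share above 0 and under 25% the median was 27.0, in 9 members from 25% to under 50% it was 47.2, and in 16 members with 50% or more it was 129. The corresponding medians in 4 week vehicle samples were 3.90, 18.3, 26.4 and 97.4. Across the 82 members with a coding transcript, Spearman's rho between unique share and RPKM was 0.54 at 2 days and 0.51 at 4 weeks, a description across genes that share libraries. The relation was weaker by other measures of uniqueness. With copies of up to 2 mismatches counted as matches rho was 0.30 and 0.31, and over stretches of the whole transcript it was 0.28 and 0.31. The 27 members with no unique stretch held 6.11% of the members' counts in the 7 kept samples at 2 days, and the 16 members at 50% or more held 50.1%. How multiply mapped reads were handled is not given in the sources used here, and the part of this in the levels was not tested.

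**Figure D1:**
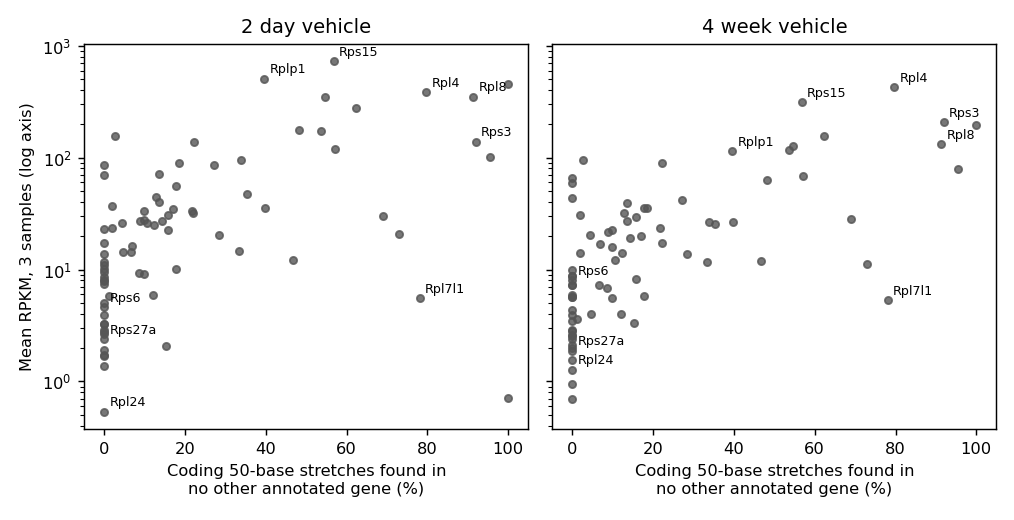
Mean RPKM of each member over the 3 kept vehicle samples (log axis) against the share of its coding 50-base stretches found in no other annotated gene, for 2 days (left) and 4 weeks (right). Members at 0% lie mostly at the bottom, and Rpl4, Rpl8 and Rps3 at the upper right, while Rpl7l1 lies low at a unique share of 78.1%; members at an RPKM of 0 are not drawn.

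A few members whose coding stretches were mostly unique by exact match were low or absent. Rpl3l, the muscle paralogue of Rpl3, and Rpl10l, the testis paralogue of Rpl10, had 0 counts in all 20 samples. A count of 0 allows up to 3 counts, or 0.522 to 2.81 CPM (counts scaled to a common library total) depending on the sample, for counting error only. Rpl39l, the testis paralogue of Rpl39, had 10 counts over the 10 samples at 2 days and 0 at 4 weeks, against 5850 and 1353 for Rpl39. Rpl7l1 had 836 and 264 counts against 2120 and 782 for Rpl7, and lay below Rpl7 per length in all 7 kept samples of both datasets. With copies of up to 2 mismatches counted, the unique coding share was 100% for Rpl3l and 74.0% for Rpl39l. It was only 9.95% for Rpl10l and 16.0% for Rpl7l1.

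Other paralogues lay nearer to their partners, but the pairs differ in how much of their coding sequence is unique. The unique share was 0% for Rps27 and 72.9% for Rps27l, and 69.0% for Rpl22 and 15.8% for Rpl22l1. The part of this in the levels was not tested. Rps27l, a target of p53, lay above Rps27 per length in 5 of 7 kept samples at 2 days and in 2 of 7 at 4 weeks. At 2 days its RPKM was 15.8 to 27.2, a range that overlapped that of Rps27. Rpl22l1, which can replace Rpl22, had an RPKM of 17.8 to 38.4 at 2 days against 23.0 to 39.5 for Rpl22, and of 6.29 to 18.3 at 4 weeks against 19.6 to 43.3. It lay above Rpl22 in 1 of 7 kept samples at 2 days and in 0 of 7 at 4 weeks, where the ranges did not overlap.

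The share of all counts that fell in the 83 members was low and differed between the datasets. At 2 days the share was 0.998%, 0.785% and 0.780% in vehicle samples C02, C04 and C05, and 0.966%, 1.02%, 0.982% and 0.829% in Cort samples C01, C03, C06 and C10. The group means were 0.854% ± 0.125 (SD, n = 3) and 0.950% ± 0.085 (SD, n = 4), and the groups overlapped. At 4 weeks the share was 0.561%, 0.523% and 0.685% in vehicle samples C02, C03 and C04, and 0.578%, 0.534%, 0.532% and 0.456% in Cort samples C07, C08, C09 and C10. The means were 0.590% ± 0.085 (SD, n = 3) and 0.525% ± 0.051 (SD, n = 4), and the groups again overlapped. Every kept 4 week sample lay below every kept 2 day sample. Mitochondrially encoded genes, which share the same total, held 4.10% to 5.84% of the counts in kept samples at 2 days and 8.28% to 11.4% at 4 weeks.

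**Figure D2:**
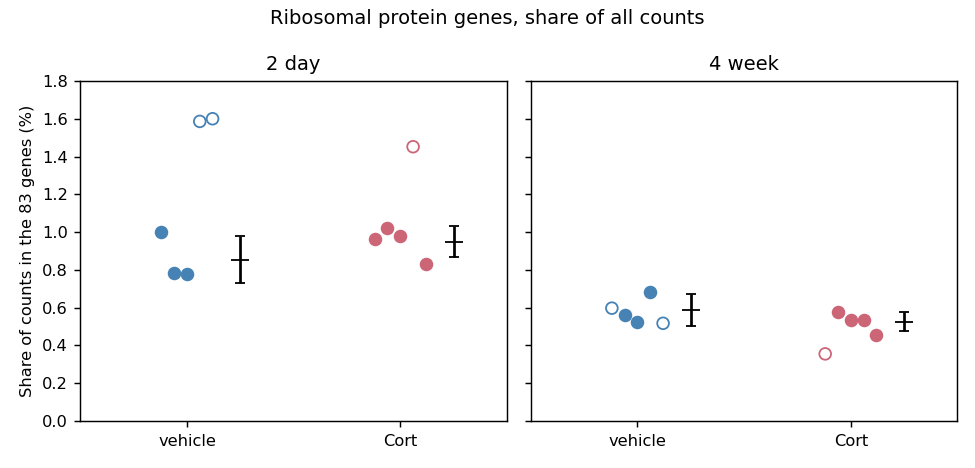
Share of all counts (%) in the 83 ribosomal protein genes, 1 point per sample, for vehicle and Cort at 2 days (left) and 4 weeks (right); filled points are the samples kept, open points those the study left out, and bars show mean ± SD of the kept samples. The 3 open points at 2 days lie between 1.45% and 1.60%, above every other sample.

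The samples left out at 2 days stood apart in these genes. Their share was 1.59% in vehicle C07, 1.60% in vehicle C09 and 1.45% in Cort C08. Rps15 was at 924, 1001 and 842 CPM in these samples, against 409 to 575 CPM in the 7 samples kept. Of the 78 members tested at 2 days, 76, 76 and 77 lay above their median over the kept samples, by a median of 0.85, 0.81 and 0.71 on the log2(CPM + 0.5) scale. Over all 12309 genes tested the median was between -0.025 and -0.014 in the same samples. The 1301 other genes with less than 2000 bases of exon were also higher there, by 0.31, 0.36 and 0.25, as were the mitochondrial ribosomal protein genes, by 0.34, 0.38 and 0.21. Blood markers summed to 126 to 274 CPM in these samples and to 25.1 to 113 CPM in the kept ones, and their part in the result was not tested. At 4 weeks the samples left out did not move together, with shares of 0.597% (C01), 0.517% (C05) and 0.355% (C06).

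**Figure D3:**
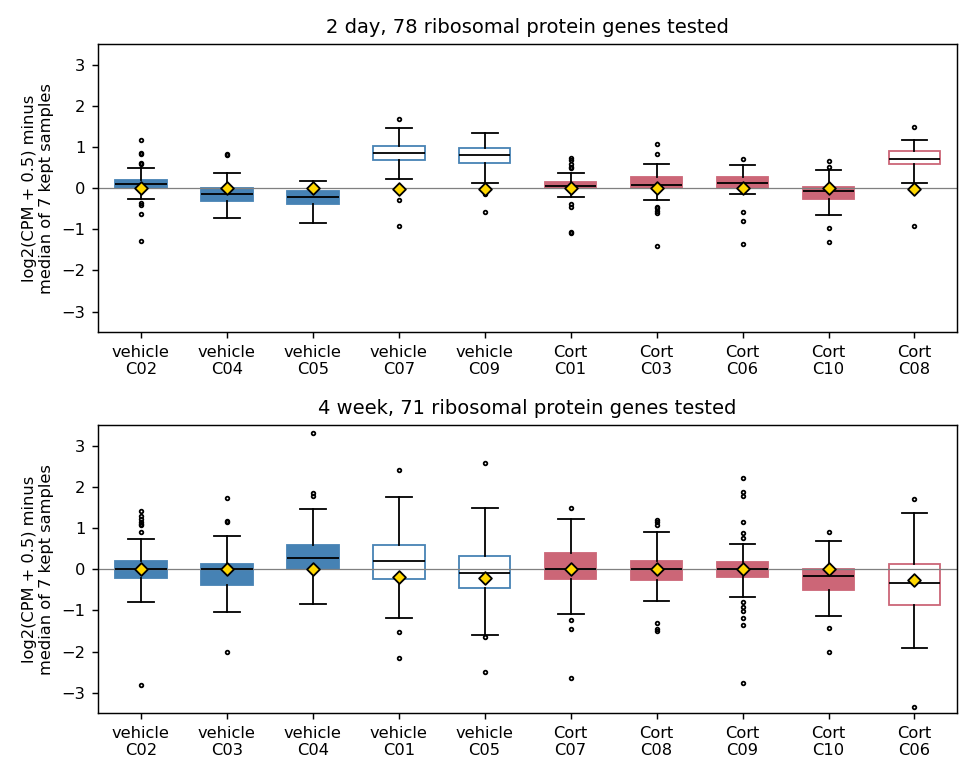
Deviation of each tested member from its median over the 7 kept samples, in log2(CPM + 0.5), as a box per sample (median, quartiles, whiskers to 1.5 times the quartile range) at 2 days (top) and 4 weeks (bottom), filled for kept and open for left-out samples; yellow diamonds give the median of all genes tested. The boxes of C07, C08 and C09 at 2 days lie near 0.71 to 0.85 while the diamonds stay near 0.

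The first comparison asked how Cort for 2 days changed these genes. Of the 78 members tested, 0 had Padj below 0.1 by edgeR's quasi-likelihood test with Benjamini-Hochberg adjustment, against 0.065% of all 12309 genes, a share so low that a count of 0 says nothing particular about the members. At an unadjusted P below 0.05 there were 2 members, 2.56%, against 5.97% of all genes, and DESeq2 gave 0 and 2. The log2 fold change was above 0 for 66 of 78 members, 84.6%, where 52.1% of all genes were above 0. The median was 0.15 over the members and 0.02 over all genes. The median SE of a member's fold change was 0.28. Small and large subunits had similar medians, 0.16 over 31 genes and 0.12 over 47 genes.

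The 4 members with the lowest P, all higher with Cort in their mean, were Rpl27a, Rps15a, Rplp2 and Rps14. Rpl27a, a large subunit protein, was at 63.3 ± 23.7 CPM in vehicle (SD, n = 3) and 98.4 ± 21.2 CPM in Cort (SD, n = 4), a log2 fold change of 0.63 ± 0.26 (SE, edgeR Padj = 0.766). Rps15a was at 195, 212 and 166 CPM in vehicle and at 250, 218, 239 and 261 CPM in Cort, a log2 fold change of 0.34 ± 0.15 (SE, edgeR Padj = 0.818). All Cort samples of Rps15a lay above all kept vehicle samples by a narrow margin, and the groups overlapped once all 10 samples were included. Rplp2, a protein of the flexible stalk that recruits elongation factors, had a log2 fold change of 0.28 ± 0.15 and Rps14 of 0.32 ± 0.18.

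In 7 members, 8.97%, the Cort samples all lay above the kept vehicle samples, against 3.23% of all genes. Among them were Rps15a and, named here after their values were seen, Rpl18, Rpl41, Rpl6 and Rps18. In none did vehicle lie above Cort, against 3.31% of all genes. Rps18 ranged from 51.0 to 68.7 CPM in vehicle and from 71.6 to 86.9 CPM in Cort. Rpl41 ranged from 100.4 to 128 CPM and from 138 to 165 CPM. With all 10 samples, 0 of the 78 members were separated, against 0.796% of all genes.

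Among members with a log2 fold change below 0 at 2 days, the 4 with the lowest P were Rpl11, Rpl9, Rpl27 and Rpl23a, all at 2.23 to 17.4 CPM in the kept samples, with log2 fold changes between -0.48 and -0.40 and SEs of 0.60 to 0.76. All 4 have no unique coding stretch. Rpl4, the most abundant large subunit member by counts, was the steadiest of the 78, with a within-group SD of 0.033 on the log2 scale. It was at 785, 753 and 748 CPM in vehicle and 796, 766, 799 and 777 CPM in Cort, a log2 fold change of 0.04 ± 0.10.

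The shift toward higher values at 2 days rested on which samples were included. Over all 10 samples the median log2 fold change of the members was -0.12, with 12 above 0 and 66 below. Without vehicle C02 it was 0.28, and 7 members had P below 0.05. The marker list of ARC neurons (Agrp, Npy, Pomc, Cartpt, Ghrh, Kiss1, Tac2 and Th), with all 8 genes present in the counts, summed to 1282 to 1719 CPM in kept vehicle and 1859 to 2453 CPM in Cort samples. No more than 1 of the 8 was at 0 in any sample. The study reports Agrp, a gene of this list, as raised by the shorter Cort treatment. The sum can therefore move with regulation of its genes as well as with cell makeup, and which of these moved it was not tested. The oligodendrocyte markers Mobp, Mog, Mag, Cnp and Cldn11, with 0 of the 5 at a count of 0 in these samples, were also separated, with sums of 170.3 to 215 CPM in vehicle and 302 to 373 CPM in Cort. The other 6 of the 8 marker lists overlapped between the groups. The part of cell makeup in the member shift was not tested, and in tissue of many cell types a change in RNA per cell and a change in the number of cells cannot be told apart.

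The second comparison asked the same after 4 weeks of Cort. Of 71 members tested, 0 had Padj below 0.1 (edgeR), against 0.0446% of all 11211 genes, and this count too says nothing particular about them. At an unadjusted P below 0.05 there was 1 member, 1.41%, against 4.91% of all genes, and DESeq2 gave 0 and 2. The log2 fold change was above 0 for 24 of 71 members, 33.8%, where 51.9% of all genes were above 0, and the median was -0.08 over members and 0.04 over all genes. The median SE was 0.67, larger than at 2 days. The remaining 12 members had too few counts to be tested.

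**Figure D4:**
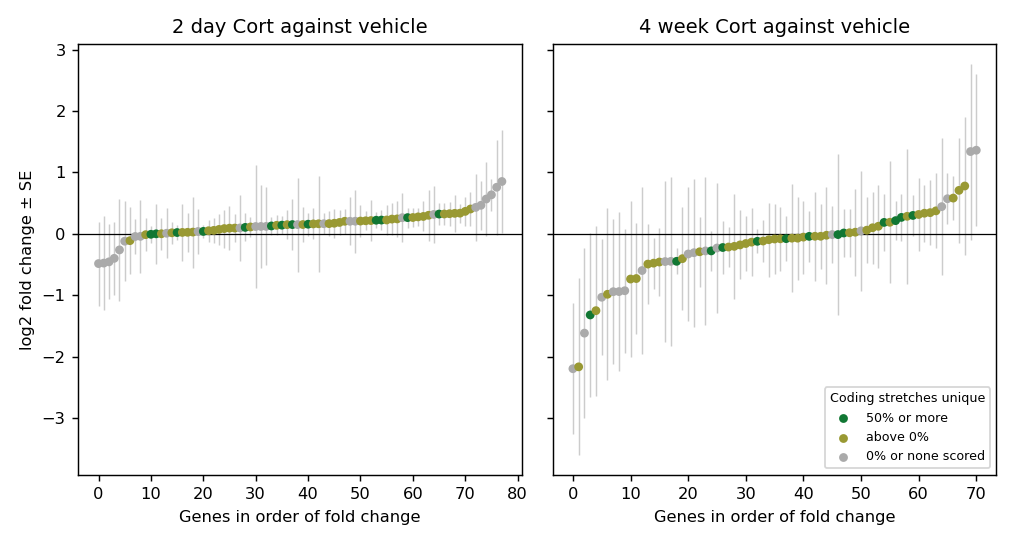
Log2 fold change of Cort against vehicle (± SE) for the 78 members tested at 2 days (left) and the 71 tested at 4 weeks (right), in order of size, with color giving the share of coding 50-base stretches that is unique. At 2 days 66 points lie above 0, at 4 weeks 24 do, and at 2 days the ends of the order are mostly members with no unique coding stretch and long error bars.

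Rps3, a small subunit protein that also repairs DNA, had the lowest P. It was at 909, 750 and 951 CPM in vehicle and at 799, 586, 669 and 488 CPM in Cort, a log2 fold change of -0.45 ± 0.21 (SE, edgeR Padj = 0.990). The groups overlapped, with vehicle C03 below Cort C07. Rpl21, Rps12 and Rpl9 came next by P among members with a log2 fold change below 0. Rpl21 was at 5.74 to 66.2 CPM in vehicle and 5.17 to 6.40 CPM in Cort, so that its log2 fold change of -2.20 ± 1.06 rested on the spread of the vehicle samples.

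Among members with a log2 fold change above 0 at 4 weeks, the 4 with the lowest P were Rps15a, Rpl15, Rps23 and Rps27a. Rps15a was at 203, 151 and 161 CPM in vehicle and 135, 381, 331 and 180 CPM in Cort, with the lowest value in a Cort sample and a log2 fold change of 0.58 ± 0.36 (SE). Rpl15 had 0.57 ± 0.42, Rps23 1.36 ± 1.23 and Rps27a 1.34 ± 1.43.

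In 5 members, 7.04%, the kept Cort samples all lay below the vehicle samples, against 3.41% of all genes. These were Rpl10, Rplp0 and Rps12 and, named here after their values were seen, Rpl10a and Rpl36. In 0 members did Cort lie above vehicle, against 3.09%. Rplp0, the base of the ribosomal stalk and a common reference gene in qPCR, was at 46.2, 39.6 and 37.1 CPM in vehicle and 31.2, 23.7, 34.1 and 27.1 CPM in Cort. Its log2 fold change was -0.49 ± 0.65 (SE, edgeR Padj = 0.990) at 4 weeks and 0.16 ± 0.25 (SE, edgeR Padj = 0.965) at 2 days. Rpl10a was at 12.5, 17.0 and 20.6 CPM in vehicle and 9.47, 7.99, 8.27 and 9.14 CPM in Cort, and was the 1 of 71 members, 1.41%, still separated over all 10 samples, against 0.901% of all genes.

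Members named for their role did not pass the threshold. Rps6 had a log2 fold change with Cort of -0.12 ± 0.65 (SE) at 2 days and -0.33 ± 1.09 at 4 weeks, and Rpsa of 0.30 ± 0.41 and 0.29 ± 1.10. The stalk protein Rplp1 had 0.14 ± 0.16 and -0.04 ± 0.53. The errors were larger at 4 weeks than at 2 days in all 3 genes.

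The direction at 4 weeks turned on 1 sample. Vehicle C04 had the highest share, and without it the median log2 fold change of the members was 0.03, with 39 above 0 and 33 below. The ARC neuron markers summed to 972 to 1407 CPM in kept vehicle and 485 to 964 CPM in Cort samples at 4 weeks. The study reports Npy, a gene of this list, as reduced by the longer Cort treatment, and relates this to the fast and refeeding. Whether regulation of its genes or cell makeup lowered this sum was not tested. Markers that moved the other way were those of astrocytes (Aqp4, Gja1, Slc1a2, Slc1a3, Gfap and Aldh1l1), at 2748 to 2782 CPM in vehicle and 3019 to 4143 CPM in Cort, and those of neurons in general (Snap25, Syt1, Rbfox3, Tubb3, Stmn2 and Eno2), at 2927 to 3050 CPM and 3238 to 3733 CPM. None of these 12 genes was at 0 in a kept sample, and the other 5 of the 8 lists overlapped between the groups. As at 2 days, their part in the member shift was not tested.

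The difference between the 2 Cort effects was tested by the time by treatment term of a fit over both datasets. Of 77 members, 0 had Padj below 0.1 (edgeR), against 0.0157% of all 12777 genes, and 1 had an unadjusted P below 0.05, 1.3%, against 6.49%. DESeq2 gave 0 and 2. The 1 member was Rps3, with an interaction of -0.57 ± 0.27 on the log2 scale (SE, edgeR Padj = 0.764). The median over the members was -0.22 with the samples kept and 0.01 over all 20 samples.

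The last comparison set 4 week vehicle against 2 day vehicle, where time, age, the fast and refeeding and the processing steps cannot be told apart. Here 7 of 77 members, 9.09%, had Padj below 0.1 (edgeR), all lower at 4 weeks, against 1.33% of all 12777 genes and 0.704% of all genes in this direction. At an unadjusted P below 0.05 there were 18 members, 23.4%, against 12.1% of all genes. The log2 difference was below 0 for 62 of 77 members and above 0 for 15, 19.5%, where 52% of all genes were above 0, with a median of -0.59 over the members and 0.04 over all genes. The median was -0.72 in the 13 tested members with at least 50% unique coding stretches and -0.42 in the 25 with none.

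Markers of several cell types also differed between the kept vehicle samples of the datasets, with no overlap in 5 of the 8 lists. The CPM were scaled within each dataset and not across both, which limits this comparison of sums. Astrocyte markers were lower at 4 weeks, with sums of 2748 to 2782 CPM against 4477 to 4915 CPM, and so were markers of neurons in general, with 2927 to 3050 CPM against 3667 to 4116 CPM. The same 5 oligodendrocyte markers were higher at 4 weeks, with 298 to 448 CPM against 170.3 to 215 CPM. So were the 4 markers of tanycytes and ependyma, with 96.2 to 269 CPM against 21.6 to 75.1 CPM, and the 5 blood markers, with 70.5 to 109.6 CPM against 25.1 to 60.2 CPM. At most 1 tanycyte and ependymal marker and 0 of the other 4 lists' markers were at 0 in these samples. Their part in the difference was not tested.

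The 7 members included Rplp1, Rplp2, Rps15, Rps21, Rps14 and Rpl8. The CPM given for them were scaled within each dataset, while the log2 differences come from the fit over both. Rplp1 and Rplp2 form the stalk of the large subunit together with Rplp0. Rplp1 was at 302, 199 and 247 CPM in 2 day vehicle samples and 58.4, 53.0 and 48.7 CPM in 4 week vehicle samples. Its log2 difference was -2.07 ± 0.26 (SE, edgeR Padj = 0.000176), the farthest from 0 of the members called. Rplp2 was at 218, 180 and 181 CPM and at 54.7, 27.1 and 72.4 CPM, a log2 difference of -1.75 ± 0.31 (SE, edgeR Padj = 0.0114). Their partner Rplp0 was at 57.8 ± 12.1 and 41.0 ± 4.71 CPM (SD, n = 3 each) and did not pass the threshold.

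The other 4 of these had log2 differences between -1.41 and -1.13 with edgeR Padj from 0.0264 to 0.048. These 4 calls rested on single samples. Without 2 day vehicle C02 the edgeR Padj was 0.144 for Rps15, 0.220 for Rps21, 0.249 for Rps14 and 0.241 for Rpl8. The calls of Rps14 and Rpl8 were also lost without 2 day vehicle C05 and without 4 week vehicle C02 or C03, and that of Rpl8 without 2 day vehicle C04, at edgeR Padj up to 0.179. The calls of Rplp1 and Rplp2 held without each sample in turn. Rps15 was at 501, 409 and 438 CPM at 2 days and 145, 199 and 210 CPM at 4 weeks, and Rpl8 at 541, 453 and 415 CPM and 177, 111 and 216 CPM. In these 6 members, which were picked for this difference, the 2 groups did not overlap. In each the Cort samples of each dataset lay on the same side, as the plot of these genes shows, but they share the processing of their dataset. Neither observation is further support for the difference. Rpl27a went the other way, at 63.3 ± 23.7 CPM at 2 days and 169 ± 52.3 CPM at 4 weeks (log2 difference 1.57 ± 0.45, SE, edgeR Padj = 0.129), and so did Rps3 (0.65 ± 0.21, SE, edgeR Padj = 0.171). Neither passed the threshold in this fit. With DESeq2 both did, at log2 differences of 1.61 for Rpl27a (DESeq2 Padj = 0.0208) and 0.69 for Rps3 (DESeq2 Padj = 0.0577).

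**Figure D5:**
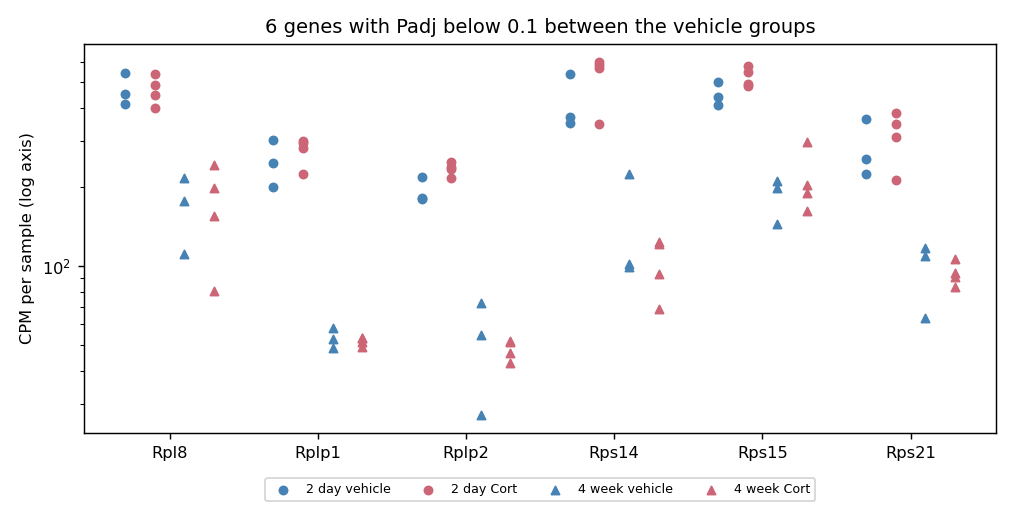
CPM of each kept sample (log axis) for 6 members with Padj below 0.1 between the vehicle groups, circles for 2 days and triangles for 4 weeks, blue for vehicle and red for Cort. In every gene the triangles lie below the circles, and blue and red points of one dataset overlap. CPM were scaled within each dataset and not across both.

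Genes that work with the ribosome were counted in lists. Among 7 ribosomal protein genes whose symbols the rule does not take, 0 had Padj below 0.1 in any comparison, where 0.0157% to 1.33% of all genes did. In 4 week vehicle 5 of the 7 were lower at an unadjusted P below 0.05, where 12.1% of all genes had such a P in either direction. One of these was Gnb2l1, which codes for the scaffold RACK1, with a log2 difference of -0.78 ± 0.26 (SE, edgeR Padj = 0.218). Mitochondrial ribosomal proteins had a median of -0.34 in that comparison over 74 genes, with 0 past the threshold, against 1.33% of all genes.

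In the Cort comparisons, 0 of 33 initiation factors, 0 of 11 elongation and termination factors and 0 of 19 genes of mTORC1 and TOP control had Padj below 0.1. Of the ribosome assembly genes 0 of 30 passed at 2 days and 0 of 29 at 4 weeks, and of mitochondrial ribosomal protein genes 0 of 75 and 0 of 71. Of all genes 0.065% passed at 2 days and 0.0446% at 4 weeks, so that these counts of 0 say nothing particular about the lists. Eef1a1, the elongation factor that brings tRNA to the ribosome and itself a TOP mRNA, had a log2 fold change of 0.25 ± 0.10 (SE, edgeR Padj = 0.754) at 2 days. Sesn1, a sestrin that restrains mTORC1 when amino acids are low, had 1.84 ± 0.55 (SE, edgeR Padj = 0.889) at 4 weeks. Rps6kb1, the S6 kinase, had 0.79 ± 0.37 (SE, edgeR Padj = 0.823) at 2 days.

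The 10 libraries of the 2 day dataset held between 2487063 and 5748223 counts each and those of the 4 week dataset between 1065776 and 5196364, and from 75 to 81 of the 83 members had a count in each sample. Markers of neurons summed to 2719 CPM or more in every sample, and those of astrocytes to 1906 CPM or more. Microglia, endothelial, tanycyte and ependymal markers each summed to at most 344 CPM.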

How the data were processed

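RNA of laser-captured ARC was amplified with a kit that does not mark strand and sequenced in single reads of 50 bases. The authors mapped reads to GRCm38 with Rsubread and deposited featureCounts counts per gene. The annotation release, strand setting and handling of multiply mapped reads are not given in the sources used here. The submitters' processing notes also name CASAVA 1.7. From the authors' normalized tables only gene symbols were used. Their 14 columns of size-factor normalized sample values were not used, nor were 12 columns of means, DESeq2 log2 fold changes, errors, statistics and p-values.

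Count columns carry barcodes, which were assigned to treatment groups through the study's sample table. Counts were tested with edgeR 4.0.16 (R 4.3.3; filterByExpr, TMM, 2-sided quasi-likelihood test, Benjamini-Hochberg adjustment over all genes tested), with a threshold of Padj below 0.1 as in the study. Unadjusted counts are at P below 0.05. The 2 Cort comparisons were fitted within each dataset, and the interaction and vehicle comparisons over both. CPM were scaled by TMM over the 10 samples of a dataset. RPKM were computed here from union exon length and total counts. Stretches were compared with all 141767 GENCODE M21 transcripts by exact match and with bwa 0.7.19 at up to 2 mismatches, and unannotated genome was not searched. Annotated genes that overlap a member at its own locus counted as other genes. Alternatives were DESeq2 1.42.0, limma 3.58.1 voom with sample weights, other scalings and filters, all samples, and leaving out each sample. Python 3.11.15 (scipy 1.17.1, pandas 2.3.3, matplotlib 3.10.9, numpy 2.4.6) was used for summaries, and the tests were tested on simulated data.

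Some members are not reported by name here. The members, lists and rules were chosen with earlier results of these data known. Named genes were members with Padj below 0.1, the 4 members above and 4 below 0 with the lowest P in each Cort comparison, the 5 highest and 5 lowest per length, members separated in both datasets (0 were), paralogue pairs, the stalk proteins, Rpsa and Rps6, and from other lists the genes with lowest P. Depth limits low members most: 3 counts were 0.522 to 2.81 CPM. RNA was amplified, so reads are not independent molecules and floors cover counting error only.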

Additional observations from a re-analysis of the deposited data

Results flagged for a closer look

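In groups of 4 or 5 samples, a sample was marked when it stood far from the others of its group by Dixon's test. Chance marks about 1 in 20 groups, and 8 marks were made over the 78 groups examined.

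At 2 days, Cort C10 was lowest of the 4 kept Cort samples for Rpl39 at 93.2 CPM and for Rps14 at 347 CPM. Cort C03 was lowest for Rpl7l1 at 8.22 CPM, and Cort C06 highest for Rps13 at 7.33 CPM. At 4 weeks, Cort C08 was lowest for Rpl21 at 5.17 CPM and for Rpl23a at 0.940 CPM. Cort C10 was highest for Rps13 at 12.2 CPM and Cort C09 for Rps27a at 23.8 CPM.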

How the results depend on the processing

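No paired analysis was possible because the count columns carry barcodes and not the replicate numbers of the labels. In both Cort comparisons and the interaction, 0 members had Padj below 0.1 under every alternative run. The number with P below 0.05 was 2 at 2 days, 0 with all 10 samples and with voom, 1 with upper quartile scaling, and 0 to 7 leaving out 1 sample. It was 1 at 4 weeks, 2 with DESeq2 and with at least 10 counts in every sample, 0 without a filter, and 0 to 2 leaving out 1 sample. For the interaction it was 1, 0 over all 20 samples, 2 with DESeq2 and with at least 10 counts in every sample, and 0 to 3 leaving out 1 sample. The median log2 fold change of the members changed sign over all 10 samples at 2 days (from 0.15 to -0.12), over all 20 samples for the interaction (from -0.22 to 0.01) and at 4 weeks without vehicle C04 (from -0.08 to 0.03), and the cause was not tested.

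In the vehicle comparison 7 members had Padj below 0.1, 22 over all 20 samples and 12 with DESeq2. Those with DESeq2 included Rpl27a and Rps3, both higher at 4 weeks. Rpl27a also passed with at least 10 counts in every sample (edgeR Padj = 0.0686) and without 4 week Cort C07, C08 or C10. Rps3 also passed without 4 week Cort C07 (edgeR Padj = 0.0786). Leaving out 1 sample gave 2 to 11, with 2 without 2 day vehicle C02, 4 without 2 day vehicle C05 or 4 week vehicle C02 or C03, and 11 without 4 week Cort C07. With P below 0.05 there were 18, and 40 over all 20 samples. The median stayed below 0 throughout, from -1.08 to -0.49. The median share of counts in 2 day vehicle was 0.785%, and 0.998% over all 10 samples. From members with at least 50% unique stretches over the whole transcript it was 0.859% in 2 day Cort, against 0.974%, and 0.472% in 4 week Cort, against 0.533%. Over nuclear genes only it was 0.598% in 4 week Cort. Depth limits the low members, and 58 of the members tested at 4 weeks had at least 10 counts in every sample.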
